A study of Mus musculus with 18 samples.

Results

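The genes followed here build ribosomes: RNA polymerase I with its factors, and the nucleolar proteins that modify, cut and fold ribosomal RNA into subunits. They were taken from a list of 50 symbols named for their function, and 49 of them were rows of a table of 11243 genes. Utp4 was absent under that symbol. In the table its row carried the older symbol Cirh1a, which was left out of every count below. The 49 members fell into 7 genes of RNA polymerase I and its factors, 3 box C/D snoRNP proteins, 4 box H/ACA snoRNP proteins, 4 general nucleolar proteins, 14 factors of small subunit assembly and 17 of large subunit assembly.

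Ribosomal RNA is transcribed in the nucleolus by RNA polymerase I. Small nucleolar ribonucleoproteins (snoRNPs) guide its chemical modification, and assembly factors then process it and join it with ribosomal proteins to form the small and the large subunit. The kinase complex mTORC1 is known to promote this programme in growing cells, and activated macrophages raise protein synthesis. How mRNAs of these genes behaved when macrophages were activated with mTOR active or blocked was the question that the design allowed.

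All libraries came from RAW264.7, an established line of mouse macrophages, with no engineered allele in any group. Control cells received the vehicle DMSO. A second group received 500 ng/mL LPS, a bacterial lipopolysaccharide, for 6 h, and the third received the same LPS after 15 min with 100 nM torin1, an mTOR kinase inhibitor. Torin1 without LPS at 6 h was not analysed here, so that its effect is given only in LPS-treated cells. Each treatment was made in 3 independent experiments, and every lysate gave 1 library of total mRNA and 1 of mRNA from heavy polysomes, or 18 libraries from 9 lysates.

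Libraries held between 27800983 and 47725557 counts, and the lowest count of a member in any library was 375. All 9 macrophage markers looked at were in the table, with summed levels of 11530 to 22170 CPM (counts scaled to the depth of the library). Of 18 markers of other cell types 2 were in the table, Pdgfrb and Cdh5, with a summed level of 0.911 to 1.95 CPM. The LPS-induced genes Tnf, Il1b, Ptgs2 and Cxcl10 were higher in LPS libraries than in control libraries in both RNA types, whereas Nos2 and Il6 were not rows of the table. In bulk libraries, fewer cells that express a gene and less mRNA per cell cannot be told apart.

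Values are given as CPM after TMM normalization over all 18 libraries, and differences as log2 fold changes with their standard error (SE) from edgeR's quasi-likelihood test. A gene was called higher or lower at a false discovery rate (FDR) of 0.25 over all 11243 genes, the threshold of the study's methods. This threshold is lenient, the p-values measure the spread between 3 experiments with 1 cell line, and adjusted p-values are given for the members on which a result turns. TMM sets the typical gene to no change, and this choice matters for LPS. The median of all genes between LPS and control was −0.02 in total mRNA with TMM and −0.38 when libraries were scaled by their totals alone, and −0.03 and −0.38 in polysome-associated mRNA. LPS directions below are therefore relative to the typical gene, and those with torin1 are relative as well.

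Taken as a share of all counts, the members became less abundant at each step. In total mRNA they held 1.01%, 0.943% and 0.990% of counts in control experiments 1 to 3, then 0.853%, 0.773% and 0.942% with LPS, and 0.710%, 0.564% and 0.625% with LPS and torin1. In heavy polysomes they held 0.868%, 0.814% and 0.841% in control cells, 0.726%, 0.632% and 0.796% with LPS, and 0.635%, 0.474% and 0.554% with LPS and torin1. Every LPS library lay below every control library, and every library with torin1 lay below the LPS library of its own experiment, while libraries of different experiments overlapped between LPS and torin1 in polysomes only. On the TMM scale this step with LPS was not seen, except in polysomes of experiment 2. The median member of the LPS libraries stood at 0.15, 0.02 and 0.24 (log2 relative to the control mean) in total mRNA and at 0.24, −0.08 and 0.24 in polysomes. The torin1 libraries lay below control on both scales, with medians of −0.17, −0.39 and −0.31 in total mRNA and −0.09, −0.49 and −0.34 in polysomes.

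**Figure D1:**
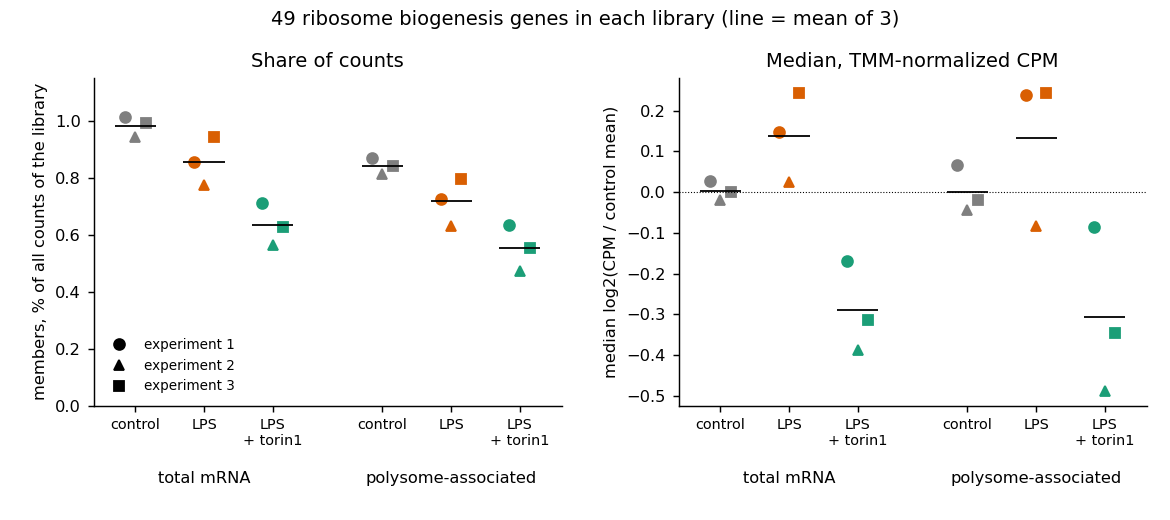
The left panel shows the share of each library's counts held by the 49 members (percent) and the right panel the median over members of log2(CPM / control mean) after TMM normalization, by treatment and RNA type, with symbols for the 3 experiments and a line at their mean. The share falls from control (0.943% to 1.01% in total mRNA) to LPS (0.773% to 0.942%) and to LPS with torin1 (0.564% to 0.710%), whereas the TMM-scaled medians of LPS libraries lie near or above 0.

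The clearest change of the members was their fall with torin1. When torin1 was added to LPS, 40 of 49 members (81.6%) were lower in total mRNA and 1 (2.0%) was higher, against 26.4% of all genes lower and 27.3% higher. The median log2 fold change of the members was −0.45, and −0.35, −0.37 and −0.57 in experiments 1, 2 and 3, against 0.00 for all genes. The 3 torin1 libraries lay wholly below the 3 LPS libraries for 36 members, as they did for 19.8% of all genes. Scaling by library totals gave 36 members lower and 1 higher with a median of −0.37. The median of all genes hardly differed between these scalings (0.00 with TMM and 0.07 with totals), so that they could hardly give different directions. Both give levels relative to the other counts of a library, and an absolute fall was not measured.

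In heavy polysomes 26 members (53.1%) were lower and 0 higher between LPS with torin1 and LPS, against 18.2% and 20.3% of all genes. Among the members 25 had an unadjusted p under 0.05 in this edgeR test, and DESeq2 called 26 lower and 0 higher. The median was −0.41, with −0.28, −0.43 and −0.55 in the 3 experiments, and the replicates did not overlap for 23 lower members, as for 16.8% of all genes. The count depended on the experiments: it was 16 without experiment 1 and 4 without experiment 3. Here and below, calls over all genes are not given for fits that leave out an experiment. A loss of calls in such fits is therefore not shown to be particular to the members. Library totals gave 26 lower and 1 higher.

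Compared with control rather than LPS, the torin1 libraries had 33 members lower (67.3%) and 3 higher (6.1%) in total mRNA, against 33.6% and 33.1% of all genes, with a median of −0.30. In polysomes 24 members were lower and 0 higher, against 29.7% and 28.5%, with a median of −0.32. For polysomes, 18 members had an unadjusted p under 0.05 in edgeR, DESeq2 called 23 lower and 0 higher, and 14 were lower without experiment 3. Library totals made the fall larger, with 45 members lower in total mRNA and 38 in polysomes and 0 higher in either. The median of all genes then fell too, to −0.30 in both RNA types. Of all genes, 6182 were lower in total mRNA and 5428 in polysomes, smaller shares than those of the members. The comparisons with LPS and with control share the torin1 libraries and are not independent of each other.

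With LPS alone the direction of the members depended on the scaling. Relative to the typical gene, 23 members (46.9%) were higher and 4 (8.2%) lower in total mRNA between LPS and control, against 32.2% and 34.3% of all genes. The median was 0.19, with 0.18, 0.03 and 0.26 in experiments 1, 2 and 3. With library totals alone, 1 member, Mybbp1a, was higher and 24 were lower, with a median of −0.18. Of all genes, 1722 were then higher and 6966 lower, with a median of −0.38. Both shares were larger than those of the members. Set against the median of all genes, the median member stood 0.21 above it, and 39 of 49 members were above that median. These values were alike under both scalings by construction, since a scaling factor shifts all genes of a library together. The LPS libraries lay wholly above control for 14 members, as for 25.6% of all genes, and without experiment 3 the count of calls fell from 27 to 17.

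In polysomes LPS gave 7 members higher (14.3%) and 4 lower (8.2%), against 26.4% and 28.7% of all genes, with a median of 0.12. These 11 calls became 17 (12 higher, 5 lower) with the experiment as a replicate block. Of all genes, 3353 were higher and 3709 lower with the block, against 2965 and 3226 without it. Both shares with the block were larger than those of the members. The 11 calls of the members became 4 without experiment 1, 24 without experiment 2 and 6 without experiment 3. With library totals 21 members were lower and 0 higher. Of all genes, 6101 were then lower and 1539 higher, both larger shares than those of the members. The LPS libraries lay wholly above control for 7 members, as for 22.1% of all genes. Of the 7 called, Taf1d and Heatr1 had ranges that overlapped. Mybbp1a (0.52 ± 0.17), Wdr43 (0.50 ± 0.16) and Nip7 (0.52 ± 0.20) were among the 7 called higher, and none of them was called with library totals. Mybbp1a lost its call without experiment 3 and Nip7 without experiment 1 or 3.

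**Figure D2:**
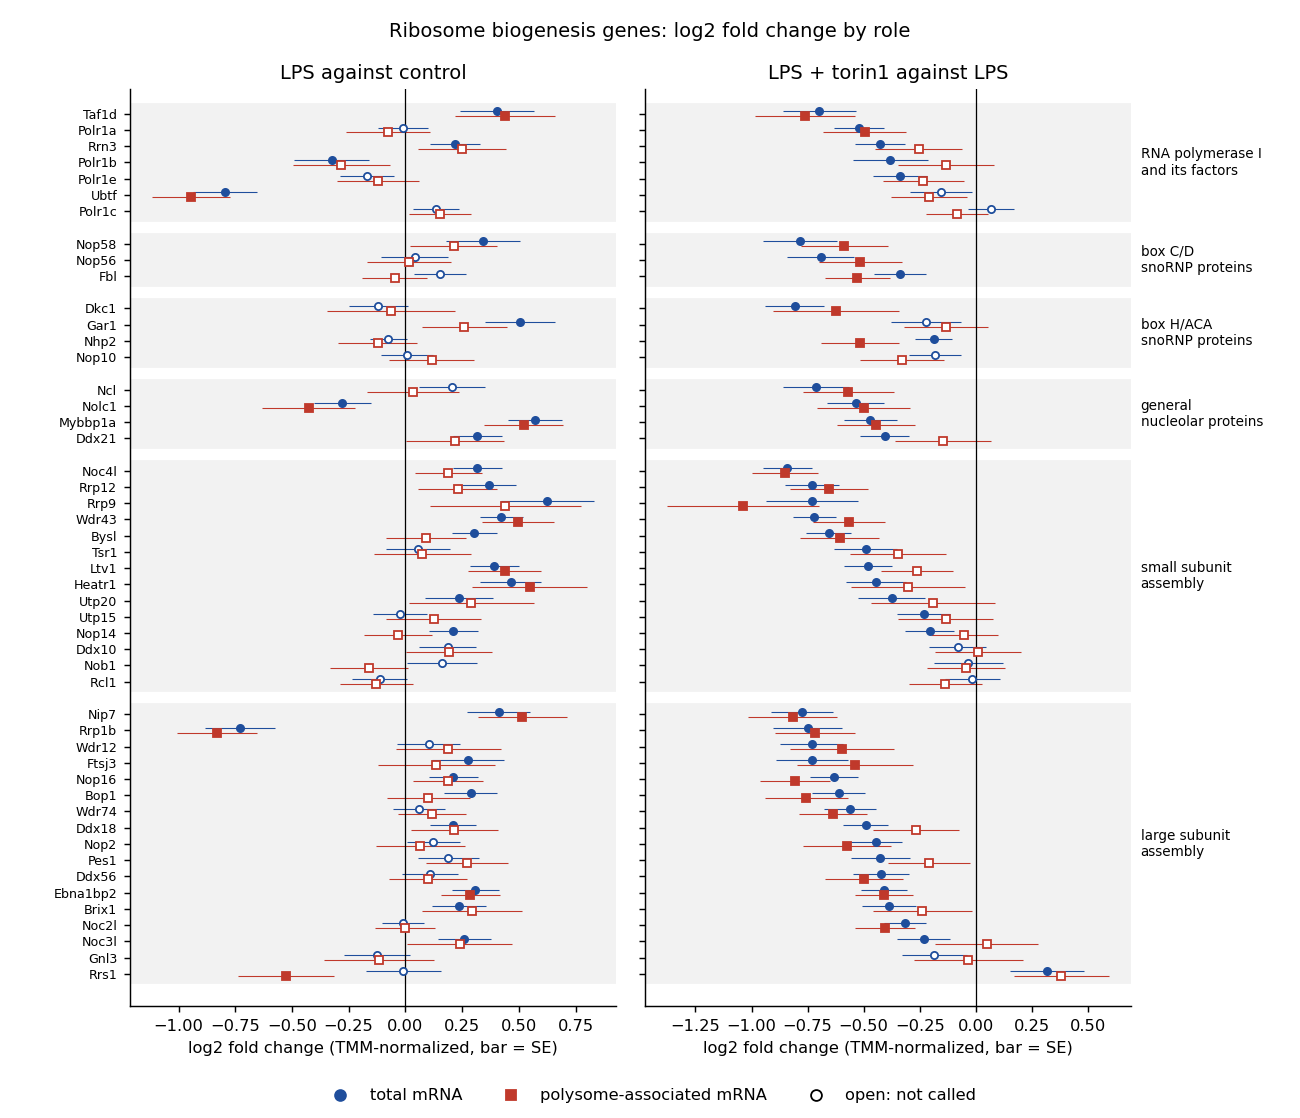
Log2 fold changes with SE (TMM-normalized) of the 49 members in total mRNA (circles) and polysome-associated mRNA (squares), by role, for LPS against control (left) and LPS with torin1 against LPS (right); filled symbols passed an FDR of 0.25. On the right 40 members are called lower in total mRNA and 26 in polysomes, and on the left 23 are called higher and 4 lower in total mRNA. With library totals 1 is called higher and 24 lower in total mRNA with LPS. Gar1, Rrp9, Nip7 and Taf1d, which are among the 23, are then not called, and the 24 include the 4 called lower here.

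Among RNA polymerase I and its factors 2 of 7 genes were higher and 2 lower with LPS in total mRNA. These counts are near the shares of all genes, 32.2% and 34.3%. With library totals neither of the 2 rises (Taf1d and Rrn3) was called. With torin1 against LPS 5 of the 7 were lower in total mRNA and 2 in polysomes, against 26.4% and 18.2% of all genes. Ubtf (GRCm38 chr11:102304560-102319742, minus strand) encodes UBF, the architectural factor that opens ribosomal RNA genes. Ubtf stood at 221, 195 and 248 CPM in total mRNA of the vehicle group, at 111.4, 120.8 and 150.4 CPM with LPS, and at 122.8, 101.6 and 119.1 CPM with LPS and torin1. All 3 LPS libraries lay below all control libraries, and the torin1 libraries overlapped those of LPS. Its log2 fold change with LPS was −0.79 ± 0.14 (SE, edgeR adjusted p = 0.00107) and −0.95 ± 0.17 in polysomes (edgeR adjusted p = 0.0019), and it stayed negative with library totals, at −1.16 and −1.29. Torin1 added −0.16 ± 0.14 in total mRNA, which did not pass the test (edgeR adjusted p = 0.439).

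Taf1d encodes a subunit of the selectivity factor SL1, which brings the polymerase to its promoter. Taf1d had 138.4, 111.7 and 125.3 CPM in total mRNA of control cells, 200, 126 and 170 CPM with LPS, and 112.5, 93.6 and 100.3 CPM after torin1. Control and LPS libraries overlapped, and all torin1 libraries lay below all LPS libraries. The fall with torin1 was −0.70 ± 0.16 in total mRNA and −0.76 ± 0.22 in polysomes (edgeR adjusted p = 0.0103 and 0.0449). The call in polysomes was lost without experiment 3, with an edgeR adjusted p of 0.285. Its LPS difference of 0.40 ± 0.16 in total mRNA was 0.03 with library totals and lost its call without experiment 3.

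Polr1a and Polr1b encode the 2 largest subunits of the polymerase. With LPS Polr1b was lower, by −0.32 ± 0.17 (edgeR adjusted p = 0.136), a call that was lost without experiment 1 or 2, whereas Polr1a stood at −0.01 ± 0.11. With torin1 Polr1a fell by 0.52 in total mRNA and by 0.50 in polysomes. Polr1b fell by 0.38 in total mRNA, and its polysome value was −0.13 ± 0.21. Rrn3 encodes TIF-IA, the factor that makes the polymerase competent to start and a known target of mTOR signalling at the protein level. Its mRNA fell by 0.43 with torin1 in total mRNA (edgeR adjusted p = 0.0166), with −0.26 ± 0.19 in polysomes. Polr1c, a subunit shared with RNA polymerase III, was among the members without a fall. Polr1c did not pass the test with torin1 against LPS, at 0.07 ± 0.10, and was called higher against control in total mRNA, by 0.20 ± 0.10. That call was lost without experiment 3 and with library totals (−0.09).

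The box C/D snoRNP proteins were lower with torin1 in both RNA types, 3 of 3 in each. They carry the guide RNAs for 2′-O-methylation, with Fbl (fibrillarin) as the methyltransferase and Nop56 and Nop58 as its scaffold. Nop58 showed 281, 231 and 262 CPM in total mRNA of control cells, 405, 280 and 296 CPM with LPS, and 220, 161 and 188 CPM with LPS and torin1. The torin1 libraries lay below those of both other groups, while the control and LPS libraries overlapped by 1 value. Between LPS with torin1 and LPS, Nop58 fell by 0.78 (SE 0.16, edgeR adjusted p = 0.00636), Nop56 by 0.69 and Fbl by 0.34. In polysomes the 3 falls were 0.59, 0.51 and 0.53, in the same order. Nop58 and Nop56 lost their polysome call without experiment 3, with edgeR adjusted p of 0.399 and 0.553.

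Of the 4 box H/ACA snoRNP proteins, which guide pseudouridylation, 2 were called lower with torin1 against LPS in total mRNA and 2 in polysomes, Dkc1 and Nhp2 in each. With the experiment as a replicate block all 4 were called lower in total mRNA. Of all 11243 genes, 3534 were lower with the block, against 2966 without it. Dkc1 (chrX:75095854-75109777, plus strand) encodes dyskerin, the pseudouridine synthase, and had 237, 237 and 224 CPM in the control libraries of total mRNA. In LPS libraries it had 236, 185 and 221 CPM, and with LPS and torin1 142.6, 105.7 and 118.3 CPM. The torin1 libraries were below all others. Dkc1 fell by 0.81 with torin1 in total mRNA (SE 0.13, edgeR adjusted p = 0.0018). In polysomes its fall was 0.62 (SE 0.28, edgeR adjusted p = 0.166), with 126.0, 57.7 and 117.9 CPM after torin1 against 153, 114 and 205 CPM with LPS, with ranges that overlapped, and was no longer called without experiment 1 or 3. Nhp2 fell by 0.19 in total mRNA and by 0.51 in polysomes (edgeR adjusted p = 0.115 and 0.0751). Its polysome libraries had 260, 258 and 208 CPM with LPS and 172, 195 and 132 CPM after torin1, without overlap. In total mRNA Gar1 and Nop10 stood at −0.22 ± 0.16 and −0.18 ± 0.12, both called with the replicate block only (edgeR adjusted p = 0.188 and 0.227). In polysomes they stood at −0.13 ± 0.19 and −0.33 ± 0.19. Gar1 was higher with LPS, by 0.51 ± 0.16 (edgeR adjusted p = 0.0224), from 12.3, 11.4 and 14.4 CPM in control cells to 18.02, 15.2 and 20.9 CPM. With library totals this rise was 0.14 and was not called. Gar1 was also called higher with torin1 against control (0.28 ± 0.16), a call that was lost without experiment 1 and with library totals (−0.01).

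The 4 general nucleolar proteins all fell with torin1 in total mRNA. Ncl (chr1:86344719-86359400, minus strand) encodes nucleolin, an abundant RNA-binding protein of the nucleolus, and stood at 1025, 915 and 1165 CPM in the control libraries. In LPS libraries it had 1136, 1058 and 1391 CPM, and with LPS and torin1 795, 626 and 768 CPM. The torin1 libraries lay below all others, whereas control and LPS overlapped. Ncl fell by 0.71 with torin1 (SE 0.15, edgeR adjusted p = 0.0058) and by 0.57 in polysomes, and its LPS value was 0.21 ± 0.15 (edgeR adjusted p = 0.271).

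Mybbp1a and Nolc1 moved in opposite directions with LPS. Mybbp1a encodes a nucleolar protein that binds the transcription factor Myb and takes part in ribosomal RNA synthesis and processing. Its total mRNA was 452, 475 and 506 CPM in the control libraries, 625, 679 and 829 CPM with LPS, and 520, 489 and 529 CPM after torin1. All LPS libraries lay above all libraries of the other groups. The LPS rise was 0.57 ± 0.12 (edgeR adjusted p = 0.00279) and 0.21 with library totals, where Mybbp1a was the only member still called higher in total mRNA. Nolc1 (Nopp140) is a chaperone of snoRNPs and had 353, 325 and 337 CPM in the control libraries. In LPS libraries it had 258, 252 and 327 CPM and after torin1 216, 175 and 187 CPM. Nolc1 was lower with LPS by −0.28 ± 0.13 (edgeR adjusted p = 0.0952), a call that was lost without experiment 1 or 2, and −0.64 with library totals. Torin1 lowered it by a further 0.54 (edgeR adjusted p = 0.0108). In polysomes the torin1 falls of Mybbp1a (0.44) and Nolc1 (0.50) were not called without experiment 1 or 3. Ddx21, an RNA helicase, fell by 0.41 in total mRNA and stood at −0.15 ± 0.21 in polysomes.

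**Figure D3:**
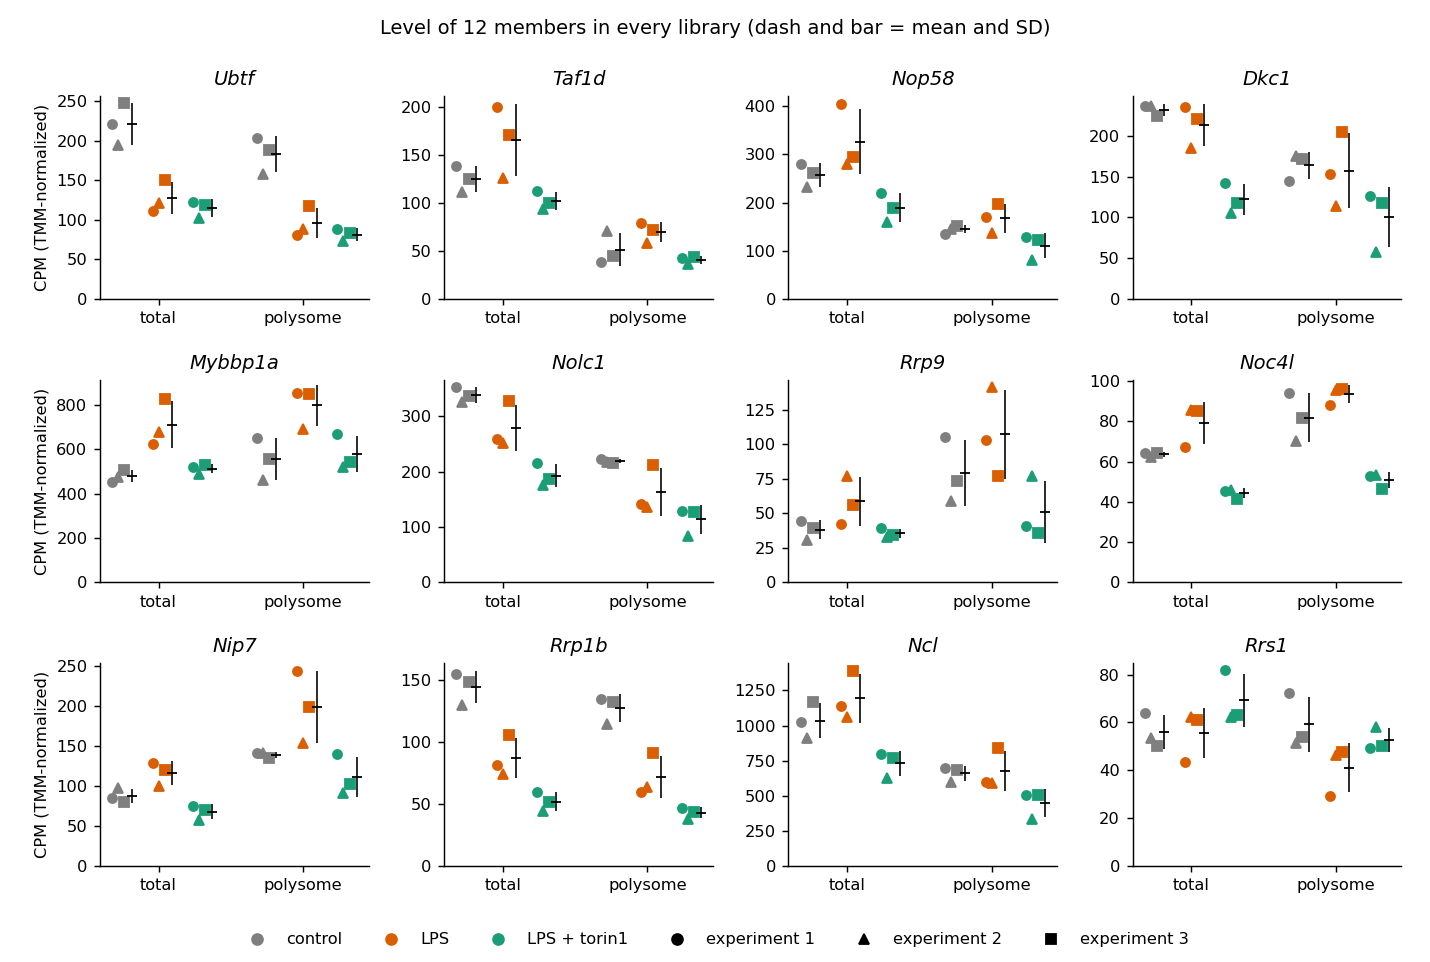
CPM (TMM-normalized) of 12 members in each of the 18 libraries, by RNA type and treatment, with symbols for the 3 experiments and the mean and SD beside them. Ubtf and Rrp1b are lower with LPS already, Ncl, Dkc1, Nop58 and Noc4l are lowest with torin1, and Rrs1 in experiment 1 stands apart from the other LPS libraries.

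Factors of small subunit assembly held 11 of 14 members lower with torin1 in total mRNA and 5 of 14 in polysomes, with none higher. In polysomes 8 were lower with the replicate block, where 2736 of all 11243 genes were lower, against 2044 without the block. The largest fall in total mRNA was that of Noc4l (chr5:110648418-110653417, minus strand), a factor of pre-40S maturation. Noc4l had 64.3, 62.2 and 64.4 CPM in the control libraries, 67.2, 85.5 and 85.1 CPM with LPS, and 45.5, 45.7 and 41.5 CPM with LPS and torin1. The 3 groups did not overlap. The fall with torin1 was 0.84 (SE 0.11, edgeR adjusted p = 0.000563) and 0.85 in polysomes (SE 0.15, edgeR adjusted p = 0.00534). Wdr43 and Heatr1 encode proteins of the UTP-A complex that binds the growing transcript, and Rrp12 is needed for export of the precursors. With torin1 Wdr43 fell by 0.72, Rrp12 by 0.73 and Heatr1 by 0.45 in total mRNA.

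Rrp9 (chr9:106475963-106485424, plus strand), a protein of the U3 snoRNP that starts cleavage of the small subunit RNA, had the highest LPS value of all members in total mRNA. Its total mRNA was 44.2, 30.5 and 39.5 CPM in the control libraries, 42.6, 77.3 and 56.1 CPM with LPS, and 39.4, 32.9 and 34.0 CPM after torin1. The rise of 0.63 ± 0.21 with LPS came from experiments 2 and 3, with −0.05 in experiment 1, and the call was lost without experiment 2 (0.24, edgeR adjusted p = 0.292) and with library totals (0.26). In polysomes Rrp9 fell with torin1 by 1.04 (SE 0.34, edgeR adjusted p = 0.0663), from 103, 141 and 77.1 CPM to 41.1, 77.0 and 35.7 CPM. The highest torin1 value lay just under the lowest LPS value. That call was lost without experiment 1. Rcl1, an endonuclease-like factor of this stage, together with Nob1, the nuclease of the last cleavage, and Ddx10, a helicase, did not pass the test with torin1 in either RNA type. Their total mRNA values were −0.02 ± 0.12, −0.03 and −0.08.

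Factors of large subunit assembly held 15 of 17 members lower and 1 higher with torin1 in total mRNA, and 11 lower in polysomes. Nip7, which takes part in processing of the large subunit RNA, had 84.0, 96.9 and 79.6 CPM in the control libraries, 128.2, 99.2 and 119.2 CPM with LPS, and 75.2, 57.1 and 70.2 CPM with LPS and torin1. Nip7 fell by 0.77 in total mRNA (edgeR adjusted p = 0.00295) and by 0.82 in polysomes (edgeR adjusted p = 0.0218, lost without experiment 3). Pes1, Bop1 and Wdr12 form the PeBoW complex, which is required for cutting the precursor of the large subunit RNAs. All of them fell in total mRNA, by 0.43, 0.61 and 0.73, and Bop1 and Wdr12 in polysomes also, by 0.76 and 0.60, with Pes1 at −0.21.

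Rrp1b (chr17:32036100-32062865, plus strand), a nucleolar protein that also binds protein phosphatase 1, was lowered by both treatments. Rrp1b had 155, 130 and 148 CPM in total mRNA of control cells, 81.5, 74.0 and 105.4 CPM with LPS, and 59.6, 44.0 and 51.5 CPM with LPS and torin1. The 3 groups did not overlap, in polysomes either, where the levels were 134.5, 114.0 and 132.2 CPM, then 59.8, 63.6 and 91.3 CPM, then 46.6, 38.1 and 43.8 CPM. The LPS step was −0.73 ± 0.15 and the torin1 step −0.75 ± 0.16 in total mRNA (edgeR adjusted p = 0.00309 and 0.0059), and both steps use the same LPS libraries. With library totals the LPS step was −1.10. Against control the torin1 libraries were lower by −1.48 ± 0.16 in total mRNA and −1.55 ± 0.18 in polysomes, the largest differences of any member. The torin1 step in polysomes (−0.72) lost its call without experiment 3.

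Rrs1, which brings the 5S ribonucleoprotein into the large subunit, was the only member called higher with torin1 against LPS in total mRNA, by 0.32 ± 0.17 (edgeR adjusted p = 0.178). The difference lay in experiment 1, at 0.92, with values near 0 in experiments 2 and 3, and without experiment 1 it was 0.02. In that experiment the LPS library of total mRNA had 43.4 CPM against 62.3 and 60.9 CPM in the others, and the polysome library 29.2 CPM against 46.4 and 47.6 CPM. The call of Rrs1 as lower with LPS in polysomes (−0.52 ± 0.21) was also lost without experiment 1. Gnl3, encoding nucleostemin, was the only gene of this group without a call for torin1 against LPS in total mRNA, at −0.18 ± 0.15, and was called lower with the replicate block (edgeR adjusted p = 0.145).

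The row Cirh1a, the older symbol of Utp4 and a further UTP-A protein, had log2 fold changes of 0.30 ± 0.14 with LPS and −0.45 ± 0.14 with torin1 against LPS in total mRNA, both called.

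A further list held other genes of ribosome assembly, the exosome and RNA polymerase I, and all but Exosc6 were in the table. With torin1 against LPS 78 of them (66.7%) were lower and 4 higher in total mRNA, and 43 (36.8%) lower and 1 higher in polysomes, against 26.4% and 18.2% of all genes lower. The snoRNP assembly factor Znhit3 and the 5S assembly factor Rpf2 had the largest falls in total mRNA, of 1.04 and 0.87. Taf1b and Taf1c, subunits of SL1 like Taf1d, were called higher, by 0.37 and 0.32. With LPS 55 (47.0%) were higher and 16 lower in total mRNA on the TMM scale, against 32.2% and 34.3% of all genes. Nol10 and Gtpbp4 rose most, by 0.86 and 0.78, and Imp3 and Cd3eap, a subunit of the polymerase, fell most, by 0.58 and 0.55.

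Whether the members shifted on or off polysomes beyond their change in total mRNA was tested in 1 model of both RNA types, by the term for a treatment effect that depends on the RNA type, and is called translation efficiency here. No member passed an FDR of 0.25 with a fold of 1.2: the count was 0 for LPS against control, 0 for torin1 against LPS and 0 for torin1 against control. Among all genes 0% were called higher and 0% lower in each of the 3 contrasts, as for the members. Unadjusted p under 0.05 in edgeR was seen for 0, 0 and 2 members in the same order. DESeq2 and an analysis of partial variance each called 0 members, and their counts over all genes are not given here. The 0% of all genes thus holds for the edgeR model only. The study, with another method (anota2seq) at the same FDR and fold, reported a subset of mRNAs with altered translation efficiency after LPS. With the lysate as a replicate block the members' counts stayed at 0, and 25 of all genes were lower for torin1 against LPS. The 2 members were Fbl (−0.41 ± 0.18) and Nhp2 (−0.40 ± 0.18), both for torin1 against control with an edgeR adjusted p of 0.998. Without experiment 2, 1 member was called for torin1 against control, Rrp9, at −1.03 (edgeR adjusted p = 0.212).

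For torin1 against LPS the members' median of translation efficiency was 0.05 with a range from −0.35 to 0.26, against −0.02 for all genes. The 5 highest were Noc3l (0.26), Ddx21 (0.24), Polr1b (0.22), Ddx18 (0.20) and Ltv1 (0.20). The 3 lowest were Nhp2 (−0.35), Rrp9 (−0.34) and Fbl (−0.21). Over all members the SE lay between 0.143 and 0.420, so that changes of this size could not be told from 0 in 3 experiments. Ltv1, an export factor of the small subunit, changed sign under the analysis of partial variance, and Rrp9 without experiment 1.

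**Figure D4:**
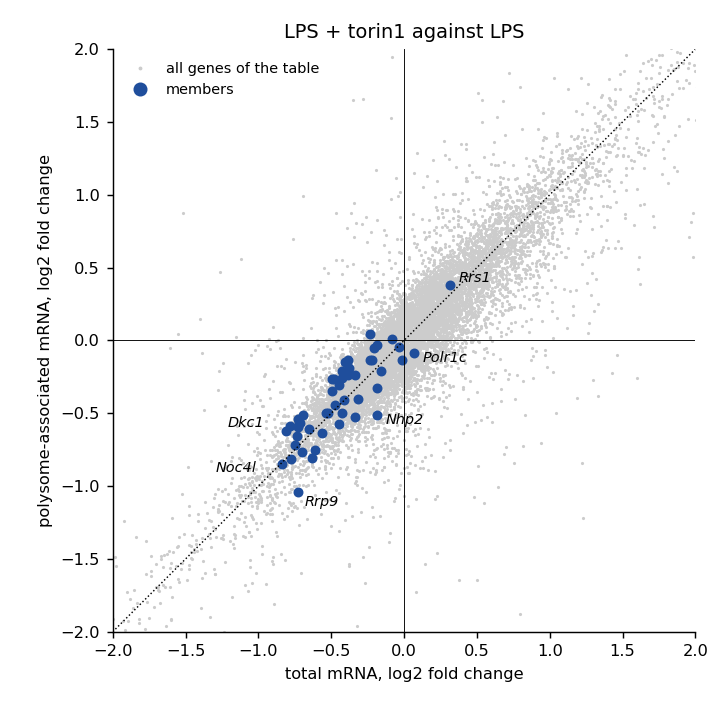
Log2 fold change with torin1 added to LPS, for total mRNA (horizontal) and polysome-associated mRNA (vertical) for the 49 members (blue) over all genes of the table (grey); both axes end at 2 and −2, and the dotted line marks equal change. The members' medians are −0.45 and −0.41, below 0 on both axes, and Rrs1 lies on the side of higher values.

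Within control cells the members differed widely in how far they were found on heavy polysomes. Between polysome-associated and total mRNA 17 members (34.7%) were higher and 23 (46.9%) lower, against 36.3% and 33.2% of all genes, and the median was −0.19 against 0.03 for all genes. Nop10, a small protein of the box H/ACA snoRNP, was the highest, with 102, 161 and 132 CPM in polysomes against 46.1, 59.2 and 45.5 CPM in total mRNA. Its log2 difference was 1.39 ± 0.16 (edgeR adjusted p = 3.79e-05). Rrp9 (1.06 ± 0.30) and Bop1 (0.75 ± 0.15) followed. Taf1d was the lowest, at −1.29 ± 0.21, with 38.3, 70.9 and 44.8 CPM in polysomes against 138.4, 111.7 and 125.3 CPM in total mRNA. Ddx21 (−0.90 ± 0.18) and Ftsj3 (−0.87 ± 0.24), a methyltransferase of large subunit assembly, came next.

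Coding length moved with this difference. Of the 24 members with a coding length under the members' median of 1638 bases, 13 were higher and 7 lower on polysomes, and of the other 25 members 4 were higher and 16 lower. The median log2 difference was 0.24 in the shorter and −0.41 in the other members. Over all genes with a length, split at the same 1638 bases, it was 0.17 and −0.20, so that the split was not particular to the members. Spearman's rho between coding length and the log2 difference was −0.493 over the 49 members and −0.277 over 10754 genes with an annotated length. These points are genes of the same 6 libraries and share their depth. The part of length in the difference was not tested.

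**Figure D5:**
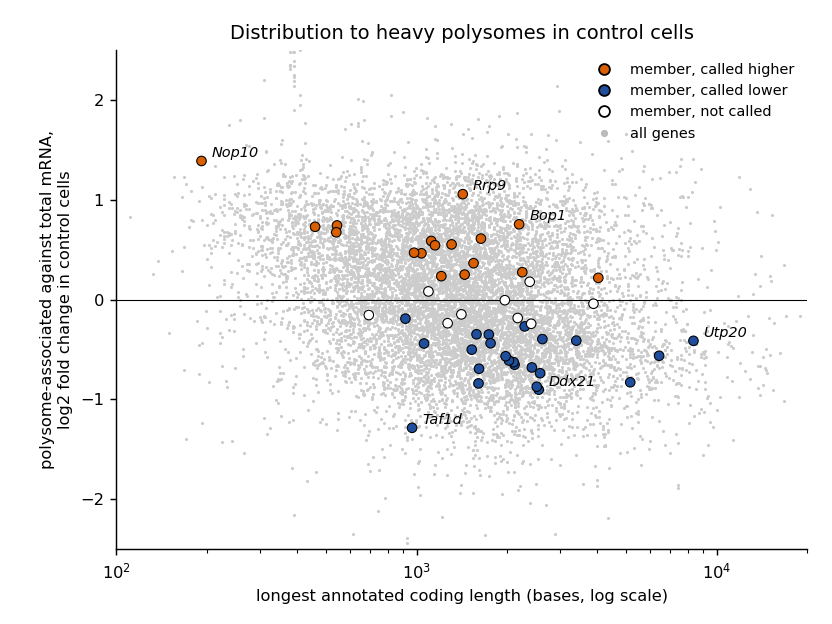
Log2 fold change between polysome-associated and total mRNA in control cells against the longest annotated coding length (bases, log scale) for the 49 members, filled by call, and for all genes with a coding length (grey). Nop10 with 192 bases is highest (1.39), and the 25 longer members hold 16 of the 23 that are lower.

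Some of the members carry snoRNA genes within their own borders, a split that was chosen after the values were seen and is given without a test. In the GENCODE annotation of GRCm38, 8 members held 29 snoRNA genes on their strand: Nop56, Gnl3, Ncl, Taf1d, Wdr43, Dkc1, Tsr1 and Nop58, with 8 of them in Taf1d. In control cells 7 of these 8 were lower on polysomes than in total mRNA and 0 were higher, with a median of −0.63. Of the 41 members without a snoRNA gene 16 were lower and 17 higher, with a median of −0.04. Over the table, 48.3% of 209 genes with a snoRNA gene inside were lower, against 33.1% of 10545 without. In Nop56, Gnl3, Ncl, Taf1d and Nop58 a snoRNA or miRNA gene overlapped an annotated exon on the same strand, so that reads of both could be counted together, and its part in the difference was not tested. Exons of 18 members were overlapped by a gene on the opposite strand, among them Mybbp1a (by Spns2), Rrp9 (by Parp3), Rrp1b (by Hsf2bp) and Dkc1 (by Mpp1), and the counting setting for strand is not given in the sources used here.

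Levels between genes were compared per kilobase of the shortest annotated transcript with the longest coding sequence. In total mRNA of control cells Nop56 (177 ± 19.4 CPM per kb, SD, n = 3), Nhp2 (152 ± 4.46) and Nop16 (148 ± 3.94) were the most abundant. Nhp2 and Nop16 differed by less than their spread. Gar1 (9.996 ± 1.23 CPM per kb) was the least abundant, below Bysl (14.1 ± 0.446). This order rests on the annotated transcripts, and that of Ncl, for example, was 8202 bases long with a coding length of 2121 bases.

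Since most members fell together with torin1, their promoters were searched for the E-box, the site known to be bound by Myc and related factors. Promoters of 45 members were found in RefSeq on GRCm38.p6, each with 250 bases before and 50 bases after the annotated start; Fbl, Rrs1, Rrp12 and Bop1 had none there. The motif CACGTG, which reads the same on both strands, was found in 8 of the 45 windows (17.78%), against 12.04% of 8568 genes of the table. In the bases before the start 2 of the 45 held it (4.44%), against 10.25%. The other 6 held it within the 50 bases after the start, in transcribed sequence. Of the 8568 genes, 1032 held it anywhere in the window and 878 of these before the start. The difference between members and all genes was not tested. All 8 were lower with torin1 in total mRNA, among 37 of the 45 that were. The 2 longer windows are shown for members with an E-box before the start and the 3 short ones for members with an E-box after it, to let the surroundings of the motif be compared. The capitals mark the E-box, and a match is a description of the letters only.

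Nop2 (GRCm38.p6 chr6:125131763-125131882, plus strand, before the start): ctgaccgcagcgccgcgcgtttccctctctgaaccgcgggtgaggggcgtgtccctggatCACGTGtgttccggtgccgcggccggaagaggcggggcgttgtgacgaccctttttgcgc

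Rrn3 (GRCm38.p6 chr16:13780579-13780698, plus strand, before the start): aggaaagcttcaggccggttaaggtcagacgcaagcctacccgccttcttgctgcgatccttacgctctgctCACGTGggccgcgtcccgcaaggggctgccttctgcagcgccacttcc

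Mybbp1a (GRCm38.p6 chr11:72441347-72441376, plus strand, after the start): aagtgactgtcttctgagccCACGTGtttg

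Wdr43 (GRCm38.p6 chr17:71616220-71616249, plus strand, after the start): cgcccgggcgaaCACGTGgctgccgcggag

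Ltv1 (GRCm38.p6 chr10:13193092-13193121, minus strand, after the start): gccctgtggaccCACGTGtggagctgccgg

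The E-box of Nop2, a methyltransferase of the large subunit RNA, began 60 bases before its start, and the nearer of the 2 E-boxes of Rrn3 began 48 bases before. In Mybbp1a, Wdr43 and Ltv1 the E-box began at bases 41, 18 and 29 after the start. With torin1 against LPS these 5 genes fell by 0.45 (Nop2), 0.43 (Rrn3), 0.47 (Mybbp1a), 0.72 (Wdr43) and 0.48 (Ltv1) in total mRNA. A run of pyrimidines at the start, a C followed by at least 4 bases that are C or T, marks mRNAs of ribosomal proteins and translation factors. At the annotated start 0 of the 45 members had such a run, against 2.92% of the 8568 genes. RefSeq starts may differ from those used in these cells, and an absent match says only that these letters are not at this position.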

How the data were processed

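RAW264.7 cells were treated in 3 experiments, and RNA was sequenced from a saved part of each lysate (total) and from its heavy polysomes. Per the study's methods, ribosomal RNA was removed, paired reads were aligned with Hisat2 to GRCm38, and featureCounts gave the deposited raw counts of protein-coding genes. The authors removed genes with 0 counts in any library. Whether counting used strand is not given in the sources used here.

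Counts were tested with edgeR 4.0.16 (R 4.3.3) by quasi-likelihood with TMM, in 1 model of 3 treatments per RNA type. Translation efficiency was the interaction over 18 libraries and 6 groups. Calls needed an FDR of 0.25, with a fold of 1.2 for translation efficiency. Library totals ranged from 27800983 to 47725557, and counting error is small beside the spread between experiments. The procedure was tested on simulated counts with changes larger than those of the members and without effects of experiment or lysate. That test does not show how well changes of the members' size are found.

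Members and lists were chosen with earlier results of these data known. Genes described in detail were, by role, those with the highest and lowest LPS change in total mRNA, members called against the majority, the 5 highest and 3 lowest in translation efficiency (torin1 against LPS), and the 3 highest and 3 lowest on polysomes. Of other pathway genes the 2 largest rises and falls were named. Further members are given for their role in the same complexes.

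The total and polysome libraries of a lysate are paired by the methods. Deviations of same-numbered libraries correlated at 0.416 on average in total mRNA (lowest 0.117) and at 0.321 in polysomes (lowest −0.138). Libraries with other numbers had averages of −0.206 and −0.155. Within lysates the average was 0.579 (lowest 0.476). The main fits did not use this pairing. Alternatives were DESeq2 1.42.0, its size factors, library totals only, a filter of 10 counts, fits of 2 treatments, a replicate block, analysis of partial variance with limma 3.58.1, an FDR of 0.05 and leaving out each experiment. Figures were drawn with matplotlib 3.10.9.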

Additional observations from a re-analysis of the deposited data

How the results depend on the processing

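With an FDR of 0.05 the members called were 14 for LPS in total mRNA, 4 for LPS in polysomes, 11 for torin1 against LPS in polysomes and 12 for torin1 against control in polysomes. Leaving out 1 experiment gave 17 to 30 calls for LPS in total mRNA, 4 to 24 for LPS in polysomes, 4 to 31 for torin1 against LPS in polysomes, 14 to 27 for torin1 against control in polysomes and 0 to 1 for translation efficiency of torin1 against control. Calls over all genes are not given for these fits. With library totals the calls in polysomes were 21 for LPS and 38 for torin1 against control. The members' medians were then −0.18 and −0.23 for LPS and −0.59 and −0.62 for torin1 against control, in total mRNA and polysomes. With the experiment as a replicate block (paired) LPS in polysomes had 17 calls, and of the role groups described, box H/ACA proteins (total mRNA, 4) and small subunit factors (polysomes, 8) had more calls with torin1 against LPS. No other count over all members moved by over 1.5 times.

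Signs turned for Nop56 with LPS in total mRNA when 1 experiment was left out (−0.10 to 0.14, negative without experiment 3), for translation efficiency of Ltv1 with torin1 against LPS under the analysis of partial variance (−0.11) and for that of Rrp9 when 1 experiment was left out (−0.80 to 0.084, positive without experiment 1). With library totals, an alternative chosen after seeing the data, signs turned in total mRNA for Nop56 (−0.33, then called lower) and Nop58 (−0.032) with LPS and for Polr1c (−0.095) and Gar1 (−0.011) with torin1 against control. The cause was not tested. Over the genes and alternatives described, 438 values kept direction and side of the threshold. Another 37 lost their call, 8 of them with library totals and 29 without an experiment, and 2 gained one with library totals (Dkc1 and Rcl1, lower with LPS). With 3 experiments and a main model that did not pair the libraries of a lysate, changes of translation efficiency near the SE of the members could not be detected.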
